A study of Lithospermum officinale with 3 samples.

Results

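Leaf was set against stem in the shoot of *Lithospermum officinale*, which belongs to the borage family and is used as a medicinal plant. The leaf library and the stem library, 1 each, came from 2-year-old plants, and the root library of plants of the same age was used to order the unigenes by their level outside the shoot. The plants grew in a natural environment and received no treatment, per the labels, and whether the tissues came from the same plants is not stated. A unigene is a sequence assembled from the reads without a genome, so pieces or variants of the same gene can be listed apart. Of 77047 unigenes, 34745 were compared, chosen as those with 10 or more expected counts summed over leaf and stem.

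Leaves carry most of a plant's photosynthesis, and their cells make large amounts of the messenger RNA for chloroplast proteins. Stems hold the vascular tissue that moves water and sugars, lignified support cells and a protective outer layer, together with some green tissue, so leaf and stem share much of their metabolism. Plants of this genus are known for red naphthoquinones of the root and for caffeic acid esters. The files pair unigene IDs with no gene names or sequences, so the labelled tissues were not checked against marker genes, functions are not given, and a unigene is referred to by its ID.

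Expected counts came to 3490670 in leaf, 4469828 in stem and 10045956 in root. Ratios were taken on the totals that remained after the 100 unigenes most counted over the 3 libraries were left out, which came to 1432056 for leaf, 2525988 for stem and 4351427 for root. The ratio is always leaf over stem, its 95% interval is an exact conditional binomial interval, and a level is given as CPM, counts scaled to these remaining totals. A count of 0 allowed up to 2.09 CPM in leaf and 1.19 CPM in stem. With 1 library per tissue there is no replicate error and no test between tissues, and every interval covers counting error only.

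Most unigenes stood at similar levels in leaf and stem. The leaf over stem ratio lay within 2-fold for 27676 of the 34745 unigenes (79.7%), and for 8406 (24.2%) the whole interval lay within 2-fold. The median log2 ratio was -0.11, with a 95% order-statistic interval across unigenes of -0.11 to -0.10, and the middle 50% of unigenes ran from -0.54 to 0.37. The interval excluded equality for 3664 unigenes on the leaf side and for 4853 on the stem side. In bulk libraries such as these, fewer cells of a type and less RNA per cell cannot be told apart.

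Few unigenes were far apart. The whole interval lay beyond 4-fold for 72 unigenes higher in leaf (0.207% of those compared) and for 116 higher in stem (0.334%), together 0.541%. Beyond 2-fold there were 599 higher in leaf (1.72%) and 601 higher in stem (1.73%), together 3.45%, so the excess toward stem at 4-fold was not seen at 2-fold. Both splits depend on the scale. On the total counts of the libraries, which move every log2 ratio by -0.46, the numbers were 32 in leaf and 257 in stem beyond 4-fold, and 205 in leaf and 1382 in stem beyond 2-fold. On the scale of the deposited TPM, moved by -0.51, they were 31 and 271 beyond 4-fold, and 188 and 1548 beyond 2-fold. With only the 10 most counted unigenes left out, moved by -0.16, they were 52 and 159, and 409 and 778. Other scales moved the 2-fold split toward leaf: there were 629 in leaf and 579 in stem with TMM factors, 658 and 554 with DESeq2 size factors, and 635 and 578 without the 1000 most counted.

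**Figure D1:**
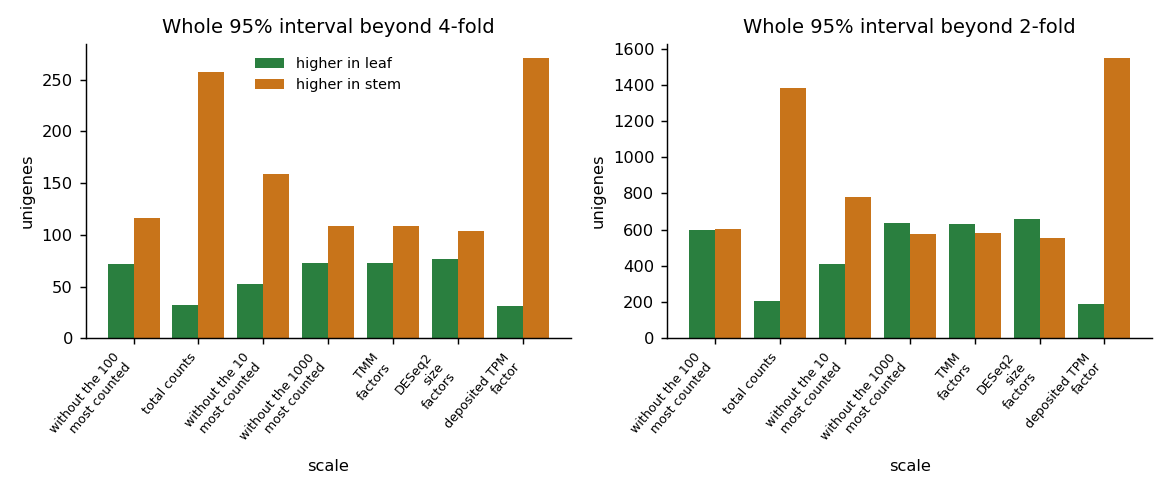
Number of unigenes (vertical axis) with the whole 95% interval of the leaf over stem ratio beyond 4-fold (left panel) or 2-fold (right panel), higher in leaf (green) or higher in stem (orange), on each scale (horizontal axis). Leaving out the 100 most counted unigenes gave 599 and 601 beyond 2-fold, whereas total counts gave 205 and 1382.

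The chance of being called also differed between the directions, because the stem library was deeper. A unigene needed at least 11 summed counts to be called higher in leaf and at least 28 to be called higher in stem beyond 4-fold. The 11072 unigenes below 28 counts could therefore be called in the leaf direction or not at all. At 50 summed counts the smallest ratio that could be called was 9.26-fold toward leaf and 27.8-fold toward stem, and at 1000 counts it was 4.60-fold and 4.94-fold.

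The entry rule of 10 summed counts had little room for contrast at its edge. The 1088 unigenes with exactly 10 summed counts had a median of 3 in leaf and 7 in stem, and the 1233 just outside, with 9, had a median of 3 and 6. Their median log2 ratios were -0.28 and -0.074. At 8 and at 11 summed counts the medians were 0.17 and 0.082, so they did not run in a single direction across the edge.

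By abundance, the centre of the ratio changed little until the most counted unigenes were reached. Over bands of summed leaf and stem counts, the median log2 ratio was -0.099 at 10 to under 20 counts (7373 unigenes), -0.060 at 20 to under 50 (10415), -0.12 at 50 to under 200 (12573) and -0.17 at 200 to under 1000 (3900). It was 0.030 at 1000 to under 10000 counts (437 unigenes), where the order-statistic interval of -0.10 to 0.15 included 0. At 10000 counts or more it was 0.98, with an interval of 0.59 to 1.05 over 47 unigenes. A change of scale moves all bands by the same amount, so on total counts the median of the most counted band was 0.52 and that of the 1000 to under 10000 band was -0.43.

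**Figure D2:**
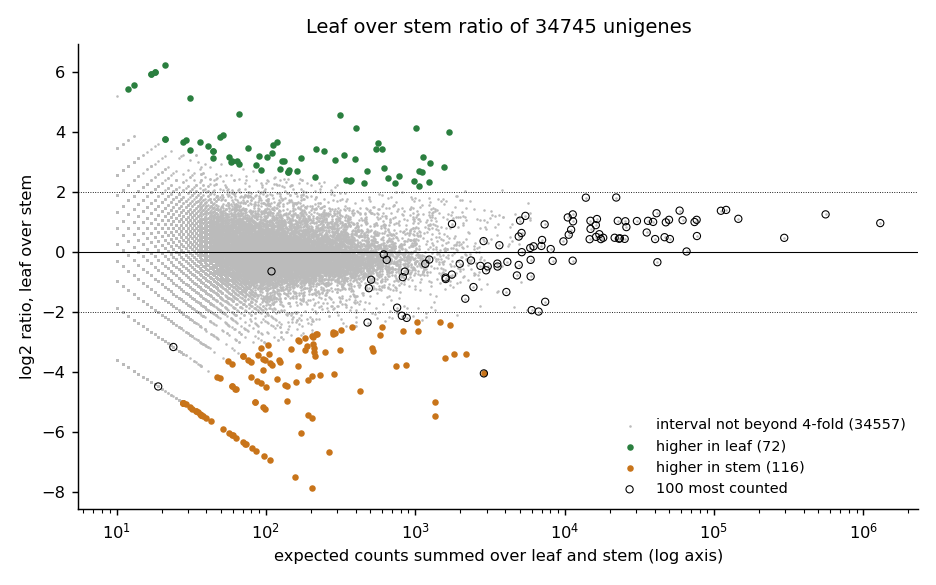
Log2 ratio of leaf over stem (vertical axis) against expected counts summed over both libraries (horizontal log axis) for 34745 unigenes. Green points are the 72 unigenes higher in leaf and orange points the 116 higher in stem, with the whole interval beyond 4-fold, black rings mark the 100 most counted over the 3 libraries, and dotted lines mark 4-fold. The rings beyond 10000 counts lie almost all above 0.

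The 47 unigenes with 10000 or more counts leaned toward leaf nearly as a block. Their levels ran from 2522 to 478203 CPM in leaf with a median of 9583, and from 1823 to 242522 in stem with a median of 5554. The interval lay above equality for 45 of the 47 and below it for 2, and their log2 ratios ran from -0.32 to 1.83. Of the 47, 19 were higher in leaf with the whole interval beyond 2-fold (40.4%, against 1.72% of all unigenes compared) and 0 were higher in stem. None reached an interval beyond 4-fold. At these counts a 2-fold difference is easier to call than at the lower counts of most unigenes. On total counts, which move every log2 ratio by -0.46, the median of the 47 was 0.52. Their 95th percentile was 1.41 before that move, so few could stay beyond 2-fold on total counts. On that scale 38 of the 47 were higher in leaf. In all, 57.2% of leaf counts and 40.7% of stem counts fell on them, and all 47 belonged to the 100 left out of the scale. Leaving them out raised the rest of leaf relative to the rest of stem by construction, and without this step their share of the leaf library lowers the level of every other unigene there.

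The lean of the most abundant unigenes was smaller when they were chosen on another library. The 47 most counted in leaf had a median log2 ratio of 0.98, the 47 most counted in stem 0.76 and the 47 most counted in root 0.49. Choosing by leaf favours leaf-high unigenes and choosing by stem disfavours them, and root takes no part in the ratio. Among the 100 most counted in root the median was -0.19, with an interval of -0.34 to 0.45.

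The spread of the ratio went well beyond counting error in every band. At 10 to under 20 counts the standard deviation (SD) of the log2 ratio was 1.19 over unigenes, where counting alone gives 0.91. At 50 to under 200 counts it was 0.77, against 0.35 from counting, and at 200 to under 1000 counts 0.76 against 0.18. At 1000 to under 10000 counts it was 1.10 against 0.083, and the 47 most counted unigenes had 0.45 against 0.019. After the counting part was taken off, the first 4 bands were alike, at 0.77, 0.73, 0.69 and 0.74, and the 1000 to under 10000 band stood at 1.09. This remaining spread can combine differences between the tissues, between plants and between library preparations. It can also hold error in assigning reads among near-identical unigenes. These cannot be told apart with 1 library each.

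**Figure D3:**
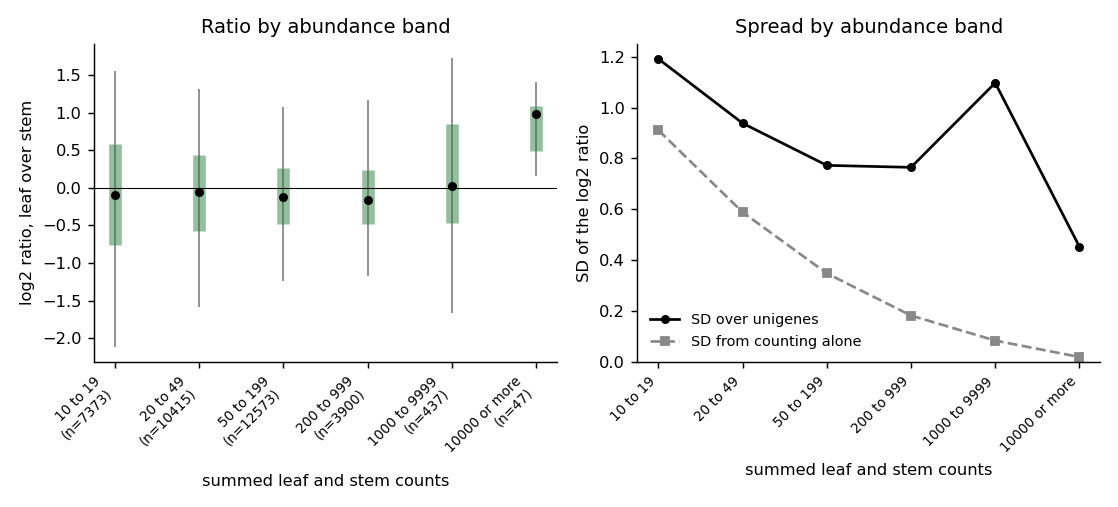
Left, log2 ratio of leaf over stem (vertical axis) in bands of summed leaf and stem counts (horizontal axis), with black points for medians, green bars for the middle 50% and grey lines from the 5th to the 95th percentile. Right, SD of the log2 ratio over the unigenes of each band (solid line) and the SD that counting alone gives (dashed line): the lines part from 1.19 and 0.91 in the lowest band to 1.10 and 0.083 at 1000 to under 10000 counts.

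Within the 437 unigenes of 1000 to under 10000 counts, called differences were frequent. Beyond 2-fold, 75 were higher in leaf (17.2%) and 34 in stem (7.78%), against 1.72% and 1.73% over all unigenes compared. Beyond 4-fold there were 9 in leaf (2.06%) and 10 in stem (2.29%), against 0.207% and 0.334% over all unigenes compared. At these counts a 2-fold or 4-fold difference is easier to call than in the bands below.

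By band of root TPM, the leaf over stem ratio was lower among unigenes with a higher level in root, but not among the most counted. Over all unigenes compared, the median log2 ratio was 0.21 where root had no count (1161 unigenes), 0.27 above 0 and under 1 TPM in root (3133), -0.019 from 1 to under 5 TPM (12995), -0.13 from 5 to under 20 TPM (12440), -0.26 from 20 to under 100 TPM (4218) and -0.40 at 100 TPM or more (798). TPM is RSEM's abundance, corrected for length. The intervals of the first 2 medians, 0.082 to 0.29 and 0.22 to 0.29, overlapped, and from there each median lay below the interval of the one before. The share of unigenes above equality in leaf was 60.1% under 1 TPM in root and 22.6% at 100 TPM or more. The order did not extend to the unigenes most counted in root. The 47 most counted there, with a median of 3025 TPM in root, had a median log2 ratio of 0.49. The step from the lowest detected to the highest root band was -0.67 on every scale, but the signs are not fixed: on total counts the medians under 1 TPM were also negative, at -0.26 and -0.19.

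Among unigenes of similar abundance in the shoot the medians were mostly ordered the same way. At 10 to under 20 summed counts the median log2 ratio was 0.082 with no root count (628 unigenes), 0.082 under 1 TPM, -0.099 from 1 to under 5 TPM, -0.24 from 5 to under 20 and -0.46 from 20 to under 100 (131 unigenes), and at 20 to under 50 counts it was 0.35 (357 unigenes), 0.30, -0.029, -0.15 and -0.45 in the same bands, with -0.73 at 100 TPM or more (25 unigenes). At 50 to under 200 summed counts the median log2 ratio was 0.43 under 1 TPM in root (790 unigenes with a root count), 0.0016 from 1 to under 5 TPM, -0.14 from 5 to under 20, -0.27 from 20 to under 100 and -0.64 at 100 TPM or more (117 unigenes). At 200 to under 1000 counts it was 0.37 (168 unigenes), 0.35, -0.0095, -0.24 and -0.41 (440 unigenes) in the same bands. Among unigenes of 1000 to under 10000 counts it was 0.91 from 1 to under 5 TPM (66 unigenes), 0.96 from 5 to under 20 (67), 0.18 from 20 to under 100 (131) and -0.33 at 100 or more (160). Some groups stood outside this order, among them the 0.91 and 0.96 just given. The 47 unigenes of 10000 or more counts were not split by root level. Their median was 0.98, at a median of 5095 TPM in root, so they stood outside the order as well. The 11 unigenes of 10 to under 20 counts at 100 TPM or more in root had a median of 0.37 with an interval of -2.81 to 0.999. The 13 unigenes of 1000 to under 10000 counts under 1 TPM in root had a median of -1.08 with an interval of -3.39 to 1.29, and the 10 unigenes of 200 to under 1000 counts with no root count had -1.40 with an interval of -4.08 to 1.02. At 50 to under 200 counts the 166 unigenes with no root count had a median of 0.32.

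**Figure D4:**
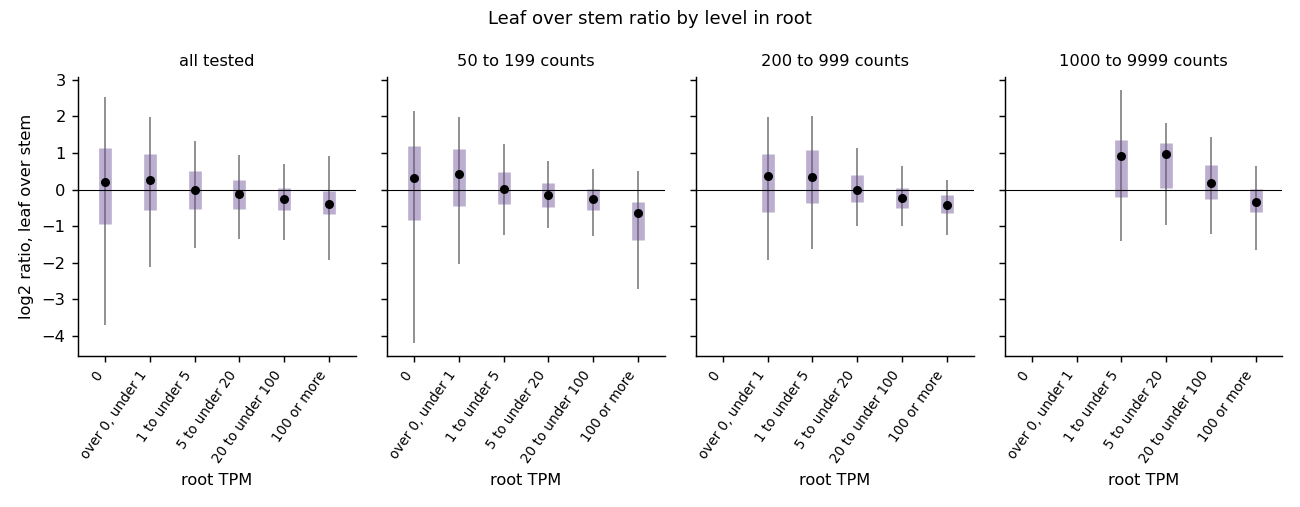
Log2 ratio of leaf over stem (vertical axis) by TPM in root (horizontal axis) over all unigenes compared and within 3 bands of summed leaf and stem counts, with black points for medians, purple bars for the middle 50% and grey lines from the 5th to the 95th percentile; groups under 20 unigenes are not drawn. Over all unigenes the median was 0.21 with no root count, 0.27 under 1 TPM and -0.40 at 100 TPM or more, and in each panel the rightmost median is the lowest.

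Unigenes little counted in root were also the most variable between leaf and stem. The SD beyond counting was 1.55 where root had no count and 1.10 under 1 TPM, against 0.65 from 1 to under 5 TPM, 0.57 from 5 to under 20 TPM, 0.62 from 20 to under 100 TPM and 0.78 at 100 TPM or more. Within 50 to under 200 summed counts the values were 1.87, 1.23, 0.72, 0.50, 0.54 and 0.85 in the same order. Beyond 2-fold, 6.37% of the unigenes with no root count were higher in leaf and 5.25% higher in stem, against 1.72% and 1.73% over all unigenes compared. Under 1 TPM in root the shares were 5.59% in leaf and 3.51% in stem, from 20 to under 100 TPM 0.996% and 2.20%, and at 100 TPM or more 2.88% and 6.77%. The larger share was thus in leaf at the low end of root and in stem at the high end, and the stem share was highest at 100 TPM or more. Among unigenes of 1000 to under 10000 shoot counts, 36.4% were higher in leaf beyond 2-fold and 9.09% in stem from 1 to under 5 TPM in root, and 38.8% and 2.99% from 5 to under 20 TPM, against 17.2% and 7.78% over that whole abundance band.

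Length made little difference to the centre of the ratio. The median log2 ratio was 0.065 up to 300 nt (172 unigenes), -0.041 over 300 and up to 500 nt, -0.11 up to 1000 nt, -0.099 up to 2000 nt and -0.12 above 2000 nt (8642 unigenes). The spread beyond counting narrowed with length, with an SD of 1.03, 0.92, 0.84, 0.72 and 0.57. Among unigenes of 50 to under 200 counts it was 0.84 over 500 and up to 1000 nt, 0.74 up to 2000 nt and 0.54 above 2000 nt, and groups of shorter unigenes were small, with 0.68 up to 300 nt over 15 unigenes. At 200 to under 1000 counts it was 0.30 over 11 unigenes above 300 and up to 500 nt, then 0.89, 0.80 and 0.63. Up to 300 nt, 14 unigenes were higher in leaf beyond 2-fold (8.14%) and 2 in stem (1.16%), against 1.72% and 1.73% over all lengths. Of those of 50 to under 200 counts, 0 of 15 were called in either direction. At 200 to under 1000 counts 2 of 4 were higher in leaf and 0 in stem. A 2-fold difference is easier to call at high counts, and the part of abundance in the excess was not tested.

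The 72 unigenes higher in leaf beyond 4-fold were of moderate abundance. Their level in leaf ran from 5.39 to 397 TPM with a median of 25.8, and in stem from 0 to 94.3 TPM with a median of 4.10. In all, 0.557% of leaf counts and 0.0994% of stem counts fell on them. Their lengths ran from 302 to 3451 nt. Stem had no count for 7 of them and 1 to 3 counts for a further 5, and the most counted in leaf among those 7 had 21 counts. Most of the 72 were therefore counted in stem too, and 20 reached 10 TPM there. Among the 60 with over 3 counts in stem the highest ratio was 27.3.

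The most counted of the leaf-high unigenes was Unigene1187, of 1907 nt. Leaf had 1528 expected counts of it, stem 166 and root 60, or 231, 20.3 and 4.88 TPM. The ratio of leaf to stem was 16.2 with a 95% interval of 13.8 to 19.2, and it was the 89th most counted unigene of leaf and the 3169th of stem. The bound farthest from equality belonged to Unigene45818, of 1263 nt, for which leaf had 291 counts, stem 21 and root 2, or 70.1, 4.08 and 0.26 TPM. Its ratio was 24.4, with an interval of 15.7 to 40.1. The unigene numbered next to it was also called, where leaf had 921 counts, stem 91 and root 5, at a ratio of 17.9 (14.4 to 22.4). Whether both numbers stand for the same gene was not tested.

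The 116 unigenes higher in stem beyond 4-fold reached lower levels in the other tissue. Their level in leaf ran from 0 to 40.2 TPM with a median of 0.77, and in stem from 2.33 to 604 TPM with a median of 23.5. In all, 0.0484% of leaf counts and 0.709% of stem counts fell on them. Leaf had no count for 32 of them and 1 to 3 counts for 29, and 61 of the 116 were under 1 TPM in leaf. The corresponding number under 1 TPM in stem was 14 of the 72 leaf-high unigenes. The deposited TPM moves every log2 ratio of leaf over stem by -0.51 against the scale of the calls. On that scale 1 TPM is thus not the same level in leaf and stem. A call toward stem also needs more summed counts than a call toward leaf. The part of either in the gap was not tested. Among the 55 with over 3 counts in leaf the highest ratio of stem to leaf was 44.7.

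The most counted of the stem-high unigenes was Unigene34770, of 1430 nt, the only called unigene among the 100 most counted over the 3 libraries. Leaf had 96 counts of it, stem 2783 and root 12189, or 20.04, 469 and 1366 TPM, so its level went up from leaf through stem to root. The leaf over stem ratio was 0.061 (0.049 to 0.075), which is 16.4-fold higher in stem. The bound farthest from equality belonged to Unigene19873, of 637 nt. Leaf had 0 counts, stem 203 and root 264, or 0, 92.7 and 80.1 TPM. Its 95% interval put it at least 30.9-fold higher in stem.

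The place of root differed between the called lists. Of the 72 leaf-high unigenes, the root CPM lay below both shoot libraries for 56 (77.8%), between them for 13 and above both for 3. Of the 116 stem-high unigenes, root lay below both for 36 (31.0%), between them for 58 and above both for 22. Over all unigenes compared, these shares were 42.5% below, 19.5% between and 38.1% above. The lists beyond 2-fold were ordered alike, with root below both for 507 of 599 leaf-high unigenes (84.6%) and for 215 of 601 stem-high ones (35.8%). Root had no count for 16 of the 72 (22.2%) and 21 of the 116 (18.1%), against 3.34% of all unigenes compared. At the other end, 0 of the 72 and 8 of the 116 reached 100 TPM in root, against 798 of the 34745 compared. At that share, 0 of 72 cannot be told from all unigenes compared. Root cannot lie below a count of 0, and leaf had none for 32 of the 116, against 7 of the 72 in stem. Among called unigenes counted in both shoot libraries, a restriction added after seeing the data, root lay below both for 56 of 65 leaf-high (86.2%) and 36 of 84 stem-high unigenes (42.9%), against 42.8% of all such unigenes. On total counts the numbers with root below both were 23 of 32 leaf-high and 80 of 257 stem-high unigenes.

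**Figure D5:**
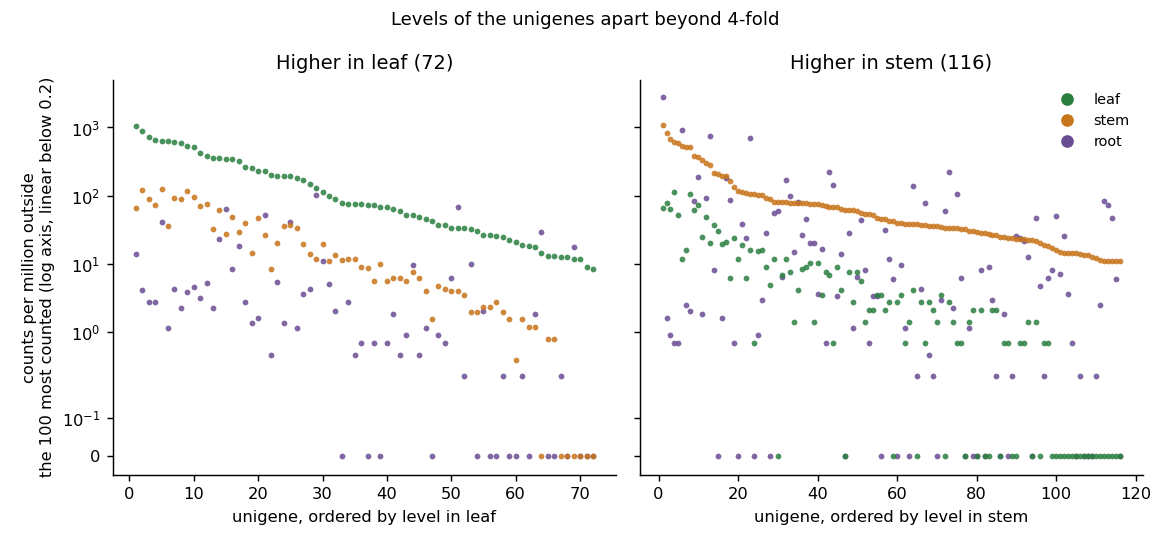
Level in CPM of the totals without the 100 most counted unigenes (vertical axis, logarithmic above 0.2 and linear below) in leaf (green), stem (orange) and root (purple) for the 72 unigenes higher in leaf (left) and the 116 higher in stem (right) with the whole interval beyond 4-fold, ordered along the horizontal axis by the level in the higher tissue. Root points lie below both shoot libraries for 56 of the 72 and for 36 of the 116.

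Presence in only 1 of the shoot libraries was rare and uneven. With 10 or more counts in the library where it was seen, 8 unigenes had no count in stem and 238 had none in leaf. Requiring the stem level to match 10 leaf counts after scaling left 73 of the 238. This matched only the library with counts. A count of 0 still allowed up to 2.09 CPM in leaf and 1.19 CPM in stem, so the 73 and the 8 are not on equal terms. The highest count against 0 was 21 in leaf and 203 in stem. Over all 77047 unigenes, 55228 had a count in leaf and 62915 in stem, and stem reduced to the leaf scale would be expected to show 56914. Up to 300 nt the shares were 35.1% in leaf and 52.4% in stem, or 37.2% in stem at the leaf scale.

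Called unigenes sat next to one another in the assembly's numbering more often than the overall share of calls. Of the 98 compared positions directly before or after a leaf-high unigene, 10 held a leaf-high one (10.2%, against 0.207% overall). Of 138 such positions next to a stem-high unigene, 16 held a stem-high one (11.6%, against 0.334%). A unigene with called unigenes on both sides was counted at both positions. By unigene, 10 of the 72 and 14 of the 116 had a neighbour called the same way. No neighbour was called in the opposite direction at 4-fold, but at the overall shares of 0.207% and 0.334% few could be seen among so few positions. Beyond 2-fold, 82 of 599 leaf-high unigenes had a leaf-high neighbour and 4 a stem-high one. Of 601 stem-high unigenes, 90 had a stem-high neighbour and 4 a leaf-high one. Neighbouring numbers can stand for pieces or variants of the same gene, so the 72 and the 116 are not counts of separate genes.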

How the data were processed

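RNA from leaf, stem and root was captured on oligo(dT) beads and made into strand-specific libraries for paired-end sequencing, per the labels' protocols. Trimmomatic and RSEM were used by the authors, per the submitters' processing notes; the versions, the assembler and the aligner are not named in the labels. The deposited tables list, per the file headers, a length, an expected count, TPM and FPKM of every unigene. The deposited expected counts were whole in 100% of cases; whether they were rounded, or reads with several targets dropped, is not known, so a low count or 0 among near-identical unigenes is uncertain. The deposited TPM lay within 2% of values recomputed from them for unigenes of 20 counts or more. The deposited FPKM equalled those of the authors' merged table, with 0 differences.

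Counts of leaf and stem were compared as ratios with exact (Clopper-Pearson) 95% intervals in scipy 1.17.1 under Python 3.11.15, checked on simulated counts. Log2 ratios had 0.5 added to each count. The counting SD is that of Poisson counts. Intervals cover counting error only, since there was 1 library per tissue. Molecular identifiers were not used here, so copies of the same molecule could be counted as separate reads. Alternative scales came from edgeR 4.0.16 (TMM) and DESeq2 1.42.0 under R 4.3.3; their tests need replicates and were not run. The unigenes named are, in each direction, the most counted called one and the one with the bound farthest from equality. Members, bands and rules were chosen with earlier results of these data known. Gene lists need gene names and were not used.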

Additional observations from a re-analysis of the deposited data

How the results depend on the processing

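Recomputing gave 121 values, of which 86 stayed within 1.5 times (counts) or within the interval across unigenes (medians and spreads). A further 35 moved and 0 reversed, and the intervals are narrow, so small moves count. A count could be labelled only as staying or moved, so the 0 reversed says nothing about counts. Their order did change on total counts, where root below both went from 56 leaf-high and 36 stem-high unigenes to 23 and 80. Part of the 86 could not move. A change of scale shifts every ratio alike, so it leaves the spread and the steps by abundance, root level and length as they were. The filters left the spread and the abundance step unchanged as well. Limiting the called lists to unigenes counted in both shoot libraries could not change 56 and 36, since root cannot lie below 0. With 1 library a tissue, no library could be dropped. No paired analysis was possible because leaf and stem have no replicates. Depth limits every statement on absence. On total counts there were 32 leaf-high and 257 stem-high unigenes beyond 4-fold, 205 and 1382 beyond 2-fold, and root below both for 23 and 80 of those beyond 4-fold. The deposited TPM scale gave 31 and 271, 188 and 1548, and 22 and 69. These moves follow from the shift of every ratio. A point ratio without an interval gave 511 leaf-high and 1333 stem-high unigenes beyond 4-fold, and 3139 and 4510 beyond 2-fold, and a 99% interval gave 44 and 72 beyond 4-fold and, for stem beyond 2-fold, 378. The median log2 ratio of all unigenes, -0.11 as reported, was -0.57 on total counts, -0.61 on the TPM scale, -0.27 without the 10 most counted, -0.084 without the 1000 most counted, -0.086 with TMM, -0.061 with DESeq2 factors, -0.095 at 1 or more counts, -0.13 at 50 or more, -0.089 at a mean level of 5 CPM or more, and -0.082 with 1 added to each count. The step of the median between the lowest detected and the highest root band, -0.67 as reported, was -0.48 at 1 or more counts, -0.81 at 50 or more, -0.83 at a mean level of 5 CPM or more and -0.53 with bands of root counts. Within 200 to under 1000 counts, chosen after seeing the data, it was -0.78. The step from the 50 to under 200 band to the most abundant band, 1.10 as reported, was 0.61 when the 47 unigenes were chosen by root counts, also chosen after seeing the data.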

Other observations

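Outside the 100 most counted unigenes, leaf and stem spread their counts over similar numbers of unigenes. In leaf 2972 unigenes held 50% of these counts and 19429 held 90%, and in stem 3498 held 50% and 20512 held 90%. With the 100 most counted included, 21 unigenes held 50% of the leaf counts and 294 held 50% of the stem counts.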
